A study of Homo sapiens with 2 samples.

Results

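The EGFR (ERBB) family genes described here are 10 genes chosen by name from the 58735 rows of the count table. They are 3 receptor genes (EGFR, ERBB2 and ERBB3), 6 ligand genes (HBEGF, AREG, EREG, TGFA, BTC and EPGN) and ERRFI1, the gene of an intracellular EGFR inhibitor. Each symbol matched exactly 1 row. RNA-seq was done on a highly metastatic derivative of SUIT-2, a human pancreatic adenocarcinoma line, after treatment with dihydroartemisinin (DHA) and without treatment (label NC). DHA is the active metabolite of the artemisinin antimalarials. Each condition had 1 library, so every difference compares 2 libraries, has no replicate check and has no p-value. The sources used here give no dose, exposure time or vehicle.

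ERBB receptors are tyrosine kinases of the cell surface. Their ligands are made as membrane-bound precursors, are cut free by metalloproteases of the ADAM class, and bind receptors that then pair and signal through RAS and ERK or through PI3K. EGFR binds all 6 ligands, and HBEGF, EREG and BTC also bind ERBB4. ERBB2 has no known ligand of its own, and ERBB3, whose kinase is nearly inactive, binds neuregulins and signals with a partner. Active ERK in turn induces ligand genes and inhibitors such as ERRFI1.

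The libraries held 14521101 (DHA) and 15452609 (NC) counted reads. Levels are given as CPM, read counts scaled to a common library size after TMM adjustment (trimmed mean of M values). Among 8 epithelial marker genes, 7 reached 50 reads in either library. Of these 7, 6 were lower in DHA by 2-fold or more, and the summed level of the list was 1423 CPM in the DHA and 3425 CPM in the NC library. The keratin gene KRT8 alone had 11840 and 29850 reads in the DHA and NC libraries. Log2 ratios of DHA over NC for the 7 ran from -5.23 for CDH1 (23 and 933 reads in DHA and NC) to 0.16 for CLDN4. The labels' extraction protocol names retina, but CRX and RLBP1, defining genes of photoreceptors and Müller glia, had 0 reads in both libraries, and the 8 retina genes looked at summed to 9.33 CPM in the DHA and 12.1 CPM in the NC library. Most of that sum was RPE65, a visual cycle enzyme gene, with 74 and 96 reads in DHA and NC, and the cone opsin gene OPN1SW, with 49 and 61 reads, and neither was called. Of 6 leukocyte genes 3 were at 0 in both libraries (PTPRC, CD3E and CD68), although 81.7% of the exon length of CD68 is shared with a gene on the same strand, and the list summed to 0.343 CPM in DHA and 0.715 CPM in NC. Of 6 fibroblast genes COL1A2, COL3A1 and DCN were at 0 in both, and COL1A1, with 11 and 83 reads in DHA and NC, was called lower. The fibroblast and endothelial lists summed to at most 4.53 CPM in the DHA and 18.4 CPM in the NC library. Most of the endothelial sum was PECAM1, also called lower, with 54 and 280 reads in the DHA and NC libraries.

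Promoters of 4 members are shown because they belong to the members that were highest relative to NC (HBEGF and ERRFI1) and to the neighbouring ligand genes with nearly equal ratios (EREG and AREG). Each window runs from 250 bases before to 50 bases after the transcription start in RefSeq on GRCh38.p14, 5′ to 3′ on the gene's strand. HBEGF lies on the minus strand at chr5:140346554-140346853, ERRFI1 on the minus strand at chr1:8026260-8026559, EREG on the plus strand at chr4:74364895-74365194 and AREG on the plus strand at chr4:74444886-74445185. Capitals mark exact matches to TATAAA (the TATA box letters searched), GC boxes (GGGCGG, or its complement CCGCCC) and the cyclic AMP response element TGACGTCA. TATA variants were not searched, so the TATATATA of the ERRFI1 window stays in small letters.
HBEGF: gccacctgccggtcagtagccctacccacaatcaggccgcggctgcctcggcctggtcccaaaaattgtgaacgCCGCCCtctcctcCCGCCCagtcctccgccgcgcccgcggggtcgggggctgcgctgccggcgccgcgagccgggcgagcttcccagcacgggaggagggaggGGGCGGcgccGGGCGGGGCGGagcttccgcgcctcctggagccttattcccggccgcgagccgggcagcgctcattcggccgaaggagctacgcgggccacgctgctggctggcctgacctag
ERRFI1: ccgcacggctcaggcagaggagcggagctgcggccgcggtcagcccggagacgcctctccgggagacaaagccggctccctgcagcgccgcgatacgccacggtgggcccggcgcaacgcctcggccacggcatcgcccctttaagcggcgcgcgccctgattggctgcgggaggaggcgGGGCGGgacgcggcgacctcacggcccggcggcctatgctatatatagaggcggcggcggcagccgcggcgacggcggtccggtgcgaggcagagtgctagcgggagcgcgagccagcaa
EREG: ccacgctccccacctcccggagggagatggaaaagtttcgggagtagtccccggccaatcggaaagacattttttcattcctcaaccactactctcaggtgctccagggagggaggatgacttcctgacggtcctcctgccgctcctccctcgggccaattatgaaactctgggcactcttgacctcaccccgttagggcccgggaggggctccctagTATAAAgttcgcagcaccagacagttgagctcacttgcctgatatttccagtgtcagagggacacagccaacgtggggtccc
AREG: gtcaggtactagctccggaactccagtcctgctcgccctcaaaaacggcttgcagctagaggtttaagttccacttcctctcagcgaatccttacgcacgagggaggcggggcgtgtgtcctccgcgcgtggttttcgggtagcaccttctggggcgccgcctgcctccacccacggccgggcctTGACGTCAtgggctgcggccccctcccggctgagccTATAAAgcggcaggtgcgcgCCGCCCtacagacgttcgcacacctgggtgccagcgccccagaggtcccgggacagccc

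Windows were matched by symbol for 9 of the 10 members, all but ERBB3, and EGFR and TGFA had 2 each. On both strands, 7 motifs were searched. In EREG and AREG, TATAAA starts at -32 and -29 from the start site, and EPGN, their upstream neighbour, also has it at -29. The second EGFR window has it at -36 and -146. The exact TATAAA is in 11.5% of all 35116 windows of this length. AREG alone among these 9 members has TGACGTCA, at -65, a motif found in 1.85% of all windows. HBEGF has 5 GC boxes, of which the last 2 share a base, and ERRFI1 has 1, against 45.0% of all windows with at least 1. The AP-1 motif TGANTCA (7.71% of windows) was found in ERBB2 and in the second window of EGFR only. The antioxidant response element core TGACNNNGC (13.3%), the CHOP-ATF motif TGATGNAA (3.62%) and the CArG box (1.29%) were in none of the members' windows. These matches describe letters, not binding.

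HBEGF and ERRFI1 were higher and ERBB3 lower in the DHA library, and the other 6 members with reads differed by less than 2-fold. To be called, a gene needed 50 reads in either library, a difference of 2-fold or more, and a 95% counting interval of the ratio that left out 1. Intervals and limits describe counting error alone, because each group has 1 library. They take every read as an independent molecule, so PCR copies would make them too narrow. Of the 9 members with at least 50 reads, all of which passed that minimum in both libraries, 2 were called higher and 1 was called lower. Over all 12064 genes measured, 6.72% were called higher and 10.3% lower. The median log2 ratio was 0.39 over the 9 members and 0.04 over all genes. The share lower, 1 of 9 members, is close to that of all genes. At 4-fold, HBEGF alone was called higher and 0 members lower, against 0.912% and 2.82% of all genes. At 1.5-fold, 3 members were called higher, AREG being the third, and 1 lower, against 18.9% and 19.2%.

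**Figure D1:**
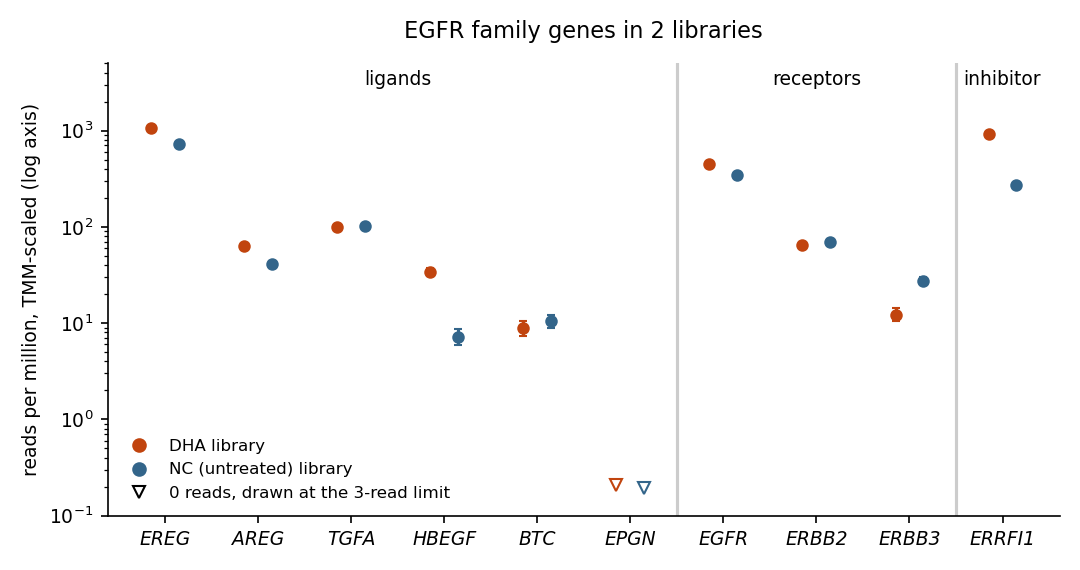
Level of each family gene in the DHA (orange) and NC (blue) libraries, in TMM-scaled CPM on a log axis, 1 library each, with exact 95% Poisson intervals that are often smaller than the point. EREG, ERRFI1 and EGFR are the most abundant in reads, HBEGF and ERRFI1 are higher in DHA, ERBB3 is lower, and EPGN has 0 reads in both.

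Among the ligands, HBEGF differed most. HBEGF encodes heparin-binding EGF-like growth factor, whose membrane precursor is also the diphtheria toxin receptor (ENSG00000113070, chromosome 5, 140332843 to 140346631, minus strand). It had 497 reads in the DHA and 110 in the NC library. That is 34.1 CPM (95% Poisson interval 31.2 to 37.2) in DHA and 7.15 CPM (5.87 to 8.61) in NC, so the intervals do not overlap. The ratio was 4.75-fold higher (3.87 to 5.92), or 2.25 on the log2 scale, the 77th highest of the 12064 genes measured.

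EREG, the gene of epiregulin, was the most abundant ligand (ENSG00000124882, chromosome 4, 74365143 to 74388751, plus strand). It had 15633 reads or 1073 CPM in the DHA library and 11223 reads or 729 CPM in the NC library. The log2 ratio was 0.56 (0.52 to 0.59), a narrow interval above 0 that stays under the 2-fold limit. AREG, which encodes amphiregulin (ENSG00000109321, chromosome 4, 74445134 to 74455009, plus strand), had 914 reads or 62.7 CPM in DHA and 628 reads or 40.8 CPM in NC. Its log2 ratio of 0.62 (0.47 to 0.77) covers that of EREG. Both genes were thus about 1.5-fold higher, 1.47-fold for EREG and 1.54-fold for AREG, and neither was called.

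TGFA and BTC had ratios whose intervals include 1. TGFA, the gene of transforming growth factor alpha (ENSG00000163235, chromosome 2, 70447280 to 70554193, minus strand), had 1454 reads or 99.8 CPM in the DHA and 1564 reads or 102 CPM in the NC library, with a log2 ratio of -0.03 (-0.13 to 0.08). BTC, which encodes betacellulin (ENSG00000174808, chromosome 4, 74744759 to 74794686, minus strand), had 129 reads or 8.85 CPM in DHA and 162 reads or 10.5 CPM in NC. Its log2 ratio was -0.25, with an interval of -0.59 to 0.09, so no difference was detectable at this depth, and the counts allow a level up to 1.51-fold lower. EPGN, the gene of epigen (ENSG00000182585, chromosome 4, 74308473 to 74315307, plus strand), had 0 reads in both libraries. With 0 counted, up to 3 reads are allowed, a limit of 0.206 CPM in DHA and 0.195 CPM in NC, and no ratio is given for it.

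The receptor genes differed among themselves. EGFR (ENSG00000146648, chromosome 7, 55019021 to 55211628, plus strand) had 6533 reads or 448 CPM in the DHA library and 5258 reads or 342 CPM in the NC library. Its log2 ratio was 0.39 (0.34 to 0.44), a 1.31-fold higher level that was not called. ERBB2, the co-receptor without a ligand (ENSG00000141736, chromosome 17, 39687914 to 39730426, plus strand), had 953 reads or 65.4 CPM in DHA and 1080 reads or 70.2 CPM in NC. The log2 ratio of -0.10 had an interval of -0.23 to 0.03 that includes 0. ERBB2 shares 7.41% of its exon length with genes on the opposite strand, among them MIEN1 with 204 and 227 reads in the DHA and NC libraries, and whether the counting used strand is not stated in the sources at hand.

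ERBB3, the receptor with a weak kinase (ENSG00000065361, chromosome 12, 56076799 to 56103505, plus strand), was the lowest of the receptors and the only member called lower. It had 179 reads or 12.3 CPM (10.5 to 14.2) in the DHA library and 419 reads or 27.2 CPM (24.7 to 30.0) in the NC library. The ratio was 2.21-fold lower (1.86 to 2.66), a log2 ratio of -1.15 that ranked 1000th from the bottom among the 12064 genes. With ratios of per-length levels (TPM) in place of TMM it was -0.98 and not called, a scaling that moves the median of all genes by 0.16. Of the epithelial markers above 6 of 7 also fell, with a median log2 ratio of -1.64 over the 7, and their part in the ERBB3 value was not tested.

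ERRFI1 encodes MIG6, an adaptor that binds the EGFR kinase domain, inhibits it and promotes receptor uptake (ENSG00000116285, chromosome 1, 8004404 to 8026308, minus strand). It had 13487 reads or 925 CPM in the DHA library and 4169 reads or 271 CPM in the NC library. The level was 3.42-fold higher (3.30 to 3.54), a log2 ratio of 1.77, the 162nd highest of all genes measured. An antisense gene covers 3.70% of its exon length and had only 14 and 5 reads in the DHA and NC libraries. With its many reads ERRFI1 had a tighter interval than HBEGF, although its ratio was smaller.

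**Figure D2:**
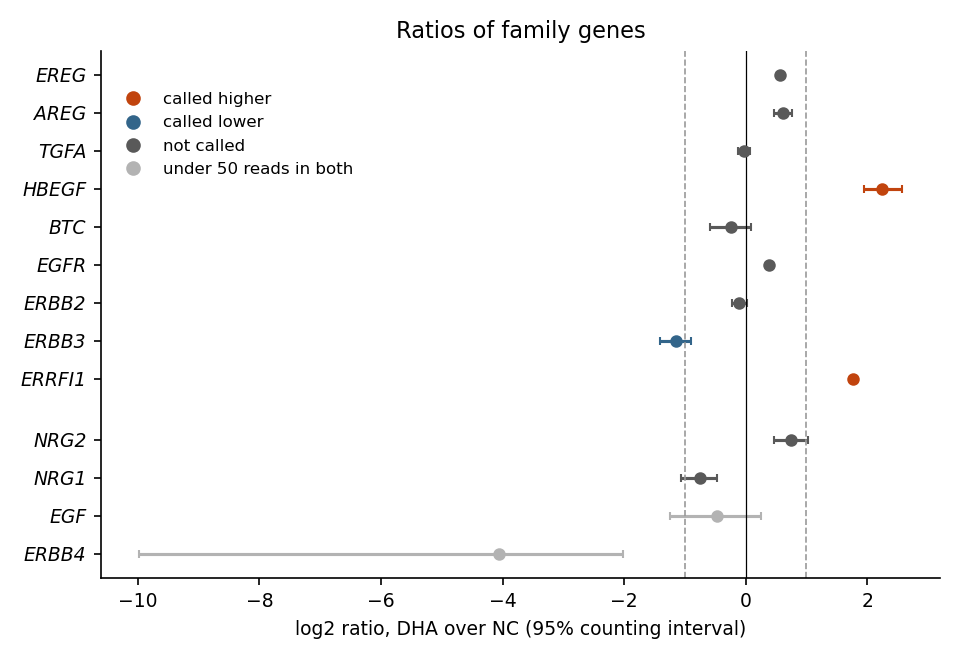
The log2 ratio of the DHA to the NC library for the 9 members with reads and 4 other family genes, 1 library each, with bars for the 95% counting interval and dashed lines at 2-fold. HBEGF (2.25) and ERRFI1 (1.77) lie right of the dashed line and ERBB3 (-1.15) left of it, and ERBB4, with 1 read in DHA, has the widest interval.

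To compare genes with one another, reads were divided by gene length and scaled to a fixed total within each library (TPM). In the DHA library the order was ERRFI1 (786 TPM), EREG (667), AREG (135), EGFR (127), TGFA (71.5), HBEGF (40.2), ERBB2 (22.5), BTC (11.2) and ERBB3 (4.83 TPM). In the NC library it was EREG (405 TPM), ERRFI1 (205), EGFR (86.6), AREG (78.6), TGFA (65.0), ERBB2 (21.6), BTC (11.9), ERBB3 (9.56) and HBEGF (7.52 TPM). HBEGF thus stood last of the 9 in NC and above ERBB2, BTC and ERBB3 in DHA. ERRFI1 and EREG traded the top place, and ERRFI1 was the 99th most abundant of all genes per length in DHA and the 544th in NC. All neighbours in these orders differed beyond counting error except AREG and EGFR in DHA, whose ratio of 1.06 had an interval of 0.99 to 1.14. Of the other steps in NC, those whose intervals came closest to 1 were EGFR over AREG (1.10, 1.01 to 1.20), BTC over ERBB3 (1.24, 1.03 to 1.49) and ERBB3 over HBEGF (1.27, 1.03 to 1.58).

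The ratio of one gene to another within a library needs no scaling between libraries. Per base of gene length, EGFR was 26.3 times ERBB3 in DHA and 9.06 times in NC, a change of 2.91-fold (exact conditional 95% interval 2.43 to 3.50). EGFR was 5.65 times ERBB2 in DHA and 4.01 times in NC, a change of 1.41-fold (1.28 to 1.55). The 3 receptor genes together had 7665 reads in DHA and 6757 in NC, 1.20-fold higher after scaling (1.16 to 1.24). Of their summed TPM, EGFR made 82.3% in DHA and 73.6% in NC, and ERBB3 made 3.12% and 8.12% in DHA and NC. Receptor transcripts were therefore mostly EGFR in both libraries, more so with DHA.

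The 6 ligand members together had 18627 reads in the DHA and 13687 in the NC library, a scaled sum 1.44-fold higher (1.41 to 1.47). Without EREG the sum was 2994 reads in DHA and 2464 in NC, 1.28-fold higher (1.22 to 1.35). EREG made 72.1% of the summed TPM of the ligand members in the DHA library and 71.3% in the NC library, so its share moved little. HBEGF made 4.34% in DHA and 1.32% in NC, and TGFA made 7.72% and 11.4% in DHA and NC. Relative to EREG, HBEGF changed 3.24-fold (2.63 to 4.03), with ratios of 0.0602 in DHA and 0.0186 in NC. Between EREG and AREG the ratio was 4.93 in DHA and 5.15 in NC, and the change of 0.96 (0.86 to 1.06) included 1. ERRFI1 changed 2.60-fold relative to EGFR, the receptor it inhibits (2.48 to 2.74), with ratios of 6.18 in DHA and 2.37 in NC.

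**Figure D3:**
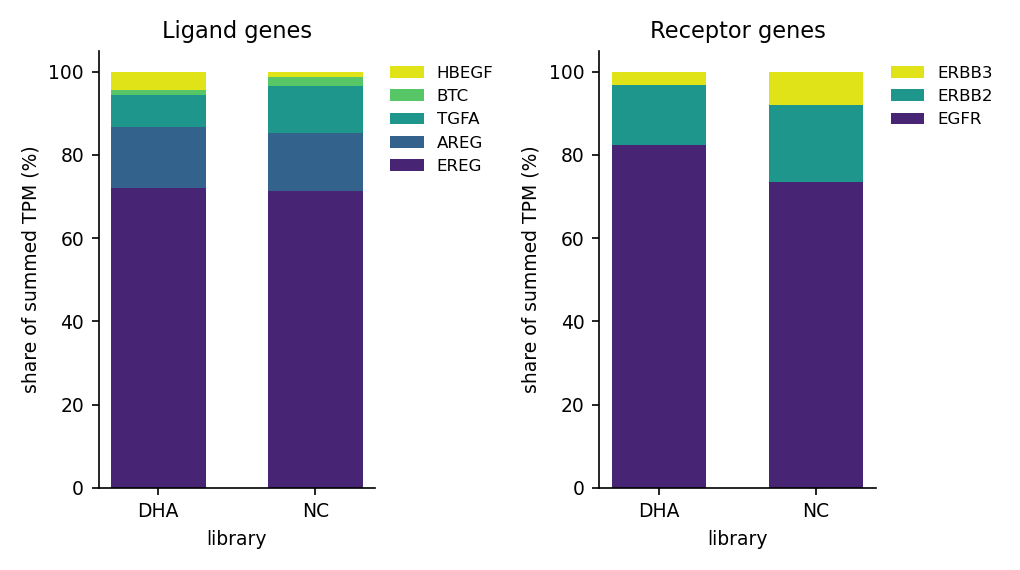
Share of each ligand gene (left) and receptor gene (right) in the summed TPM of its class, in the DHA and NC libraries. EREG holds 72.1% and 71.3% of ligand TPM in DHA and NC, HBEGF is larger in DHA, and EGFR holds 82.3% and 73.6% of receptor TPM in DHA and NC.

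The other genes of the family had few reads. ERBB4, the receptor for neuregulins, HBEGF, EREG and BTC, had 1 read in DHA and 26 in NC, a ratio 16.7-fold lower with a counting interval of 4.04 to 1009, under the minimum of 50 reads. EGF, the founding ligand, had 27 and 40 reads in DHA and NC. Of the neuregulins, NRG1 had 152 reads in DHA and 272 in NC (log2 ratio -0.76, -1.06 to -0.47). NRG2 had 279 in DHA and 175 in NC (0.75, 0.47 to 1.03). Their intervals do not overlap and lie on opposite sides of 0, and neither was called. NRG3 had 2 and 9 reads and NRG4 had 1 and 10 in DHA and NC.

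Ligand release depends on proteases and their partners. Of 17 such genes 15 were measured, with 1 called higher (6.67%, against 6.72% of all genes), 4 lower (26.7%, against 10.3%) and a median log2 ratio of -0.21. The higher gene was ADAM17, the protease that frees HBEGF, AREG, EREG and TGFA, named after its value was seen, with 1778 reads in DHA and 874 in NC (log2 ratio 1.10). Of its exon length 12.3% is shared with IAH1 on the opposite strand, which had 277 and 614 reads in DHA and NC. TIMP3, an inhibitor of ADAM17, had 231 reads in DHA and 2483 in NC (log2 ratio -3.34). FRMD8, which holds the protease complex at the cell surface, had 4598 reads in DHA and 13080 in NC (-1.43). TSPAN15, a partner of ADAM10, and the rhomboid protease gene RHBDL2 had log2 ratios of -1.69 and -1.23.

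Genes of ERK output and feedback, which act downstream of the receptors, had 7 of 22 called higher (31.8%, against 6.72% of all genes). Another 2 were called lower (9.09%, near the 10.3% of all genes). The median was 0.63, and 20 of 22 log2 ratios were above 0. The phosphatase genes DUSP5 and DUSP6 had log2 ratios of 2.98 and 2.13, with 2293 and 1476 reads in DHA against 307 and 356 in NC. FOSL1, an AP-1 subunit, had 10617 reads in DHA and 2935 in NC (1.93), and the RAS pathway inhibitor SPRY4 had 2181 and 621 (1.89). The 2 lower genes were SPRY1 (-1.64) and the ephrin receptor gene EPHA4 (-1.76), also named after their values were seen. HBEGF (2.25) lay between DUSP6 and DUSP5 in ratio, and ERRFI1 (1.77) just under SPRY4. DUSP5, DUSP6, FOSL1 and SPRY4 have the largest ratios of the list, and 13 of its 22 genes were not called. Whether ERK activity had a part in the HBEGF and ERRFI1 values was not tested. This list and the others were chosen with results of these data known.

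Of 22 measured genes that take activated receptors out of service, 2 were called higher (9.09%, near the 6.72% of all genes) and 0 lower (against 10.3%), with a median log2 ratio of 0.51. SOCS3, a signalling suppressor, had 172 reads in DHA and 67 in NC (1.43). HGS, an endosomal sorting gene, had 2150 and 1084 (1.07). It shares 23.5% of its exon length with genes on the opposite strand, among them ARL16 with 481 and 552 reads in DHA and NC. The ubiquitin ligase gene CBL (0.89) and the sorting gene STAM (0.88) were not called, but passed 2-fold with TPM ratios. Among 28 genes of adaptors, RAS, MAP kinases and PI3K, 1 was called higher, the adaptor gene GAB2 (1.12), and 1 lower, STAT5A (-1.34), with a median of 0.48. These shares, 3.57% each way, lie under those of all genes. The kinase genes MAP2K1 and BRAF had 0.93 and 0.93, were not called, and likewise passed 2-fold with TPM ratios.

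**Figure D4:**
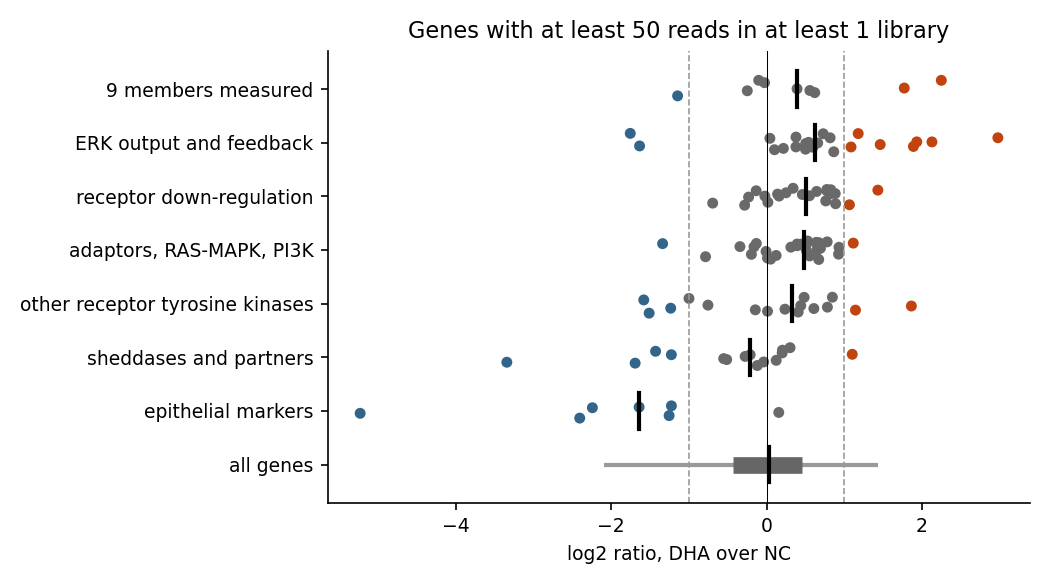
The log2 ratio of the DHA to the NC library for each measured gene of the family and of 6 other lists, with orange for called higher, blue for called lower, grey for neither and a black bar at the median. The ERK output list has its median at 0.63 and the epithelial markers at -1.64, and the grey bars for all genes span the middle 50% (thick) and 95% (thin) around a median of 0.04.

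EPGN, EREG, AREG and BTC are neighbours on chromosome 4, downstream of a cluster of chemokine genes. Within 500 kb of their outer ends, 9 genes, 3 of them ligands of the family, had at least 50 reads. The chemokine genes CXCL6, CXCL1 and CXCL5 were called lower, with 1, 67 and 113 reads in DHA and 89, 496 and 306 in NC. CXCL2 was called higher, with 152 reads in DHA and 66 in NC (log2 ratio 1.28). The closest measured neighbour upstream, the folate enzyme gene MTHFD2L, had 203 reads in DHA and 211 in NC (0.02). PARM1, a mucin-like gene beyond BTC, had 343 and 239 reads in DHA and NC (0.60, 0.36 to 0.84), close to the values of EREG and AREG. Ratios in this region thus ran from -5.82 for CXCL6 to 1.28 for CXCL2, and the family ligands lay between -0.25 and 0.62.

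**Figure D5:**
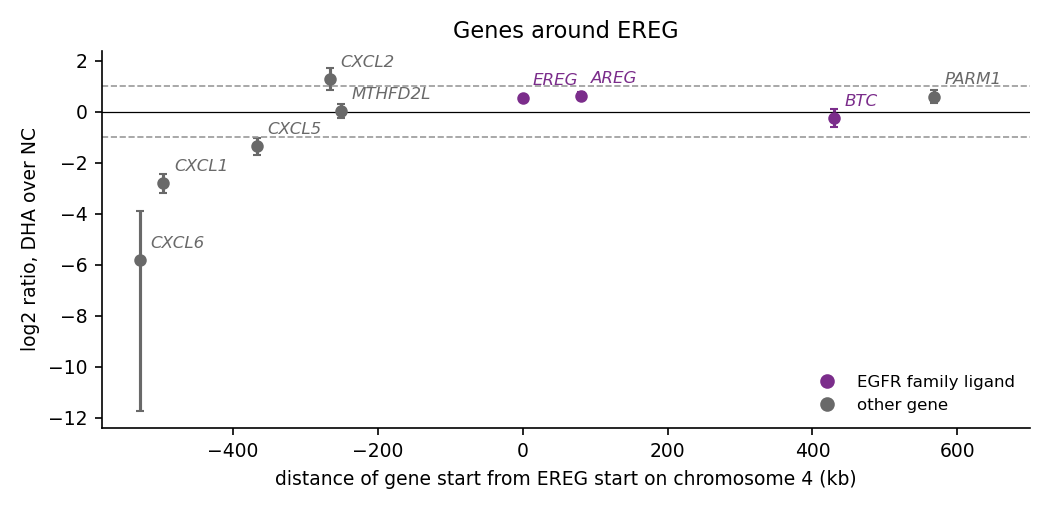
The log2 ratio of the DHA to the NC library for the genes with at least 50 reads around EREG, by the distance of their start from the EREG start in kb, with 95% counting intervals and dashed lines at 2-fold. EREG and AREG (purple) sit at 0.56 and 0.62, BTC at -0.25, and 3 of the 4 chemokine genes (grey) lie under the lower line.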

How the data were processed

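The authors deposited raw read counts of 1 DHA and 1 NC library and a length in bases for every gene, per the file headers. Groups came from the treatment label. The submitters' processing notes name the mouse build mm8, but all 58735 rows had the coordinates and exon-union lengths of GENCODE release 29 on human GRCh38, which was used here. Aligner and counting tool: not given in the sources used here, nor is the use of strand. Counts were scaled by TMM (edgeR 4.0.16, R 4.3.3), and ratios of DHA over NC took 0.5 reads as pseudocount, with an exact Clopper-Pearson 95% interval. The size rule was also run on simulated counts with counting error alone. Such counts hold no variation between cultures and no PCR copies, so they cannot test the rule for these. Changes of one gene relative to another have an exact conditional interval (scipy 1.17.1). Promoters came from RefSeq (GRCh38.p14).

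The members and the lists were chosen with earlier results of these data known. Named genes are all 10 members, the 6 other family genes, all measured genes around the chromosome 4 ligands, and up to 4 genes per list with the largest absolute log2 ratio among those with at least 50 reads. Alternatives were other scalings, including DESeq2 1.42.0 size factors, read minimums, pseudocounts, fold thresholds, a wider interval, protein-coding genes alone and a trend on length and GC content removed (mgcv 1.9.3). TPM ratios were chosen after seeing the data.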

Additional observations from a re-analysis of the deposited data

How the results depend on the processing

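HBEGF and ERRFI1 were called higher under all 5 other scalings, both other pseudocounts, the stricter interval and the length and GC trend removal. Over the alternatives that gave them a value, the log2 ratio ran from 2.18 to 2.41 for HBEGF, 1.71 to 1.94 for ERRFI1 and -1.21 to -0.98 for ERBB3. ERBB2 and TGFA, whose intervals include 0, reached 0.06 and 0.14 with TPM ratios. TPM ratios moved the median of all genes by 0.16, left 0 members called lower, and called 1219 genes higher. A 4-fold threshold left 1 member higher (HBEGF) and 0 lower, with 110 and 340 genes called higher and lower over all genes. Over the 105 measured of the 125 genes of the other lists it left 2 and 1. A minimum of 500 reads also left 1 (ERRFI1) and 0, with 431 and 379 genes over all, and 10 higher and 4 lower in the lists. HBEGF, with 497 reads in DHA, and ERBB3, with 419 in NC, dropped out under that minimum with unchanged ratios. At 1.5-fold AREG was called as well, and 2284 and 2320 genes were called higher and lower over all. In the lists, chosen with results known, 39 of the 105 measured genes were called higher at this threshold, against 18.9% of all genes. At 2-fold, 12.4% of the 105 were called higher and 9.52% lower, against 6.72% and 10.3% of all genes. Minimums of 10 and 1 reads gave 1297 and 1432 higher and 2126 and 2386 lower genes. No paired analysis was possible because each group has 1 library. Depth limits BTC most among the members with reads (129 in DHA and 162 in NC), and variation between cultures was not measured.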

Other observations

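Other receptor tyrosine kinases were measured in the same libraries. Of 28 such genes 16 had at least 50 reads, with 2 called higher (12.5%, against 6.72% of all genes), 3 lower (18.8%, against 10.3%) and a median log2 ratio of 0.32. The fibroblast growth factor receptor gene FGFR1 had 2007 reads in DHA and 582 in NC, a log2 ratio of 1.86. Its relative FGFR4 had 558 reads in DHA and 1765 in NC, a log2 ratio of -1.58. The collagen receptor gene DDR1 had 479 reads in DHA and 1444 in NC (-1.51), and ROR1 had 116 and 289 (-1.23). MERTK, a receptor for apoptotic cells that was named after its value was seen, had 595 reads in DHA and 284 in NC (1.14). EGFR, with a log2 ratio of 0.39, lay close to the median of this list.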
